A study of Mus musculus with 24 samples.

Results

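The 10 genes described here carry ions, water and bicarbonate across the colonic epithelium: Slc26a3, Slc9a3, Aqp8, Car1, Car2, Car4, Scnn1a, Scnn1b, Scnn1g and Cftr. They were taken by gene name from the array annotation, and all 10 were found, with 14 of the 41174 probes and 10 of the 27962 named genes. Slc26a3 had 3 probes, Scnn1a and Cftr had 2 each, and in these cases the brightest probe on average represented the gene. RNA from the colon and the liver of 12 female C57BL/6 mice was measured on 24 two-colour Agilent arrays, 6 arrays for each tissue and diet. All mothers ate a high-fat diet with little selenium and folate (HF-low) from 7 days before mating through lactation. After weaning at about 28 days, the offspring stayed on that diet (HF-low-low, n = 6) or changed to one with adequate amounts of both nutrients (HF-low-suf, n = 6) until 12 weeks of age. Each array compared the RNA of 1 mouse, labelled with Cy3, with a Cy5-labelled reference pool of gut and liver RNA from the same 12 mice, and the dyes were not swapped. The labels name the pooled gut tissue as colon in one field and as intestine in another. Whole tissue was extracted, so fewer cells of a type and less RNA per cell cannot be told apart.

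The surface cells of the colon take up sodium and chloride through paired exchangers, Slc9a3 moving sodium in for a proton and Slc26a3 moving chloride in for bicarbonate. Carbonic anhydrases make the proton and bicarbonate that these exchangers use, and an epithelial sodium channel built from 3 subunits takes up the remaining sodium. Cftr is the chloride and bicarbonate channel of secretion, and water follows the salt, partly through aquaporins such as Aqp8.

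Each probe is a 60-base oligonucleotide, and the array files give its position in build mm7. The probes for Car1 (chr3:14789096-14789155, minus strand) and Car4 (chr11:85034716-85034775, plus strand) gave clear differences between tissues. The second probes for Scnn1a (chr6:125369357-125369561, plus strand, over 205 bases of genome) and Cftr (chr6:18208199-18208258, plus strand) stayed near background although the other probe of the same gene did not. These 4 oligonucleotides are shown because they set what could and could not be read. The whole oligonucleotide binds, so no part is in capitals.
Car1 probe: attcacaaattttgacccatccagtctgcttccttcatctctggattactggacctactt
Car4 probe: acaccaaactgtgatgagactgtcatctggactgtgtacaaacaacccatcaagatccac
Scnn1a second probe: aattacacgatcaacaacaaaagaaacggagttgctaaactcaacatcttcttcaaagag
Cftr second probe: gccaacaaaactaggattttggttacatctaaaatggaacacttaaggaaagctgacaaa

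RefSeq promoter sequences (build GRCm38.p6) were matched by symbol for 7 of the 10 genes. The 250 bases before the start of transcription are shown for 3 genes that were higher in the colon and for Aqp8, which was higher in the liver. Both strands were searched for 6 motifs, and matches are in capitals. One was TATAAA, the core of the TATA box. Another was GGGCGG, the core of the Sp1 motif. The motif of the gut factor CDX2 was written as TTTATTG, and that of the liver and gut factor HNF4 as CAAAGTCCA. The GATA factor motif was written as AGATAA, and the palindrome of HNF1 was searched as well.
Slc26a3, chr12:31437969-31438218, plus strand: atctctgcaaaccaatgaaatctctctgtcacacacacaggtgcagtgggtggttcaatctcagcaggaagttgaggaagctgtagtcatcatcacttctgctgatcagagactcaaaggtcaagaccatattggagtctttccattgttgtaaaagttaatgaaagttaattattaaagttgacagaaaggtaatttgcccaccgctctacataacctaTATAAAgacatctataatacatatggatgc
Slc9a3, chr13:74121163-74121412, plus strand: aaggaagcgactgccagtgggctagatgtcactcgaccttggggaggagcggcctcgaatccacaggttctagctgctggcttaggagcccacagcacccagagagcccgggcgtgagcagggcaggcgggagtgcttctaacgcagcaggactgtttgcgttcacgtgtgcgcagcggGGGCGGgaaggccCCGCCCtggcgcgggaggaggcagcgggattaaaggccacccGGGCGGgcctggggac
Cftr, chr6:18170437-18170686, plus strand: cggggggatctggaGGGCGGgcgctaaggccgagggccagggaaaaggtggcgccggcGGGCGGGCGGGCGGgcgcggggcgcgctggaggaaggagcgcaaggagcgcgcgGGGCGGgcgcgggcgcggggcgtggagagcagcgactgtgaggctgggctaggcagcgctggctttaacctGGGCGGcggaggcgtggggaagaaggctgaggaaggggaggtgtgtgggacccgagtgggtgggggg
Aqp8, chr7:123462044-123462293, plus strand: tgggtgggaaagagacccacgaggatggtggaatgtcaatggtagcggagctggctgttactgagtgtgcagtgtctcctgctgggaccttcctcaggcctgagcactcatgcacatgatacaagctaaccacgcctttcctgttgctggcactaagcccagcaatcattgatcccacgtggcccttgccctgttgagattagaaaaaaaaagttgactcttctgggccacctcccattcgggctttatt
The Slc26a3 sequence held 1 TATAAA, from 30 to 25 bases before the start, a motif found in 12.4% of the 32851 promoter sequences of this length. The Slc9a3 sequence held 3 copies of GGGCGG and the Cftr sequence 6, of which 3 overlapped, and at least 1 copy was present in 32.7% of all promoters. The 250 bases of Cftr were 76.4% G or C and those of Slc26a3 38.8%, against a median of 52.4% over all promoters. None of the 6 motifs was in the Aqp8 window. The CDX2, HNF4, HNF1 and GATA motifs, found in 4.2%, 0.384%, 0.00913% and 9.99% of all promoters, were in none of the 4 sequences shown. As an exact string the HNF1 palindrome is too rare for its absence to say much. The Slc26a3 sequence holds gttaattattaaa, which differs from that palindrome in its last base only. Among the sequences not shown, that of Car4, also higher in the colon, held none of the 6 motifs. Those of Scnn1b and Scnn1g held GGGCGG only. A match is a description of the letters and was not tested for binding.

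Cy3 signals of the 24 arrays had medians between 3.77 and 7.22 times the local background, and the number of arrays limits the precision. In Cy5, colon HF-low-suf replicate 5 (18.2 times) and liver HF-low-suf replicate 4 (12.7 times) stood apart from a median of 6.73. On them 71.9% and 59.6% of probes were well above background, against a median of 41.3%. Without these 2 arrays 8 of the 10 genes were called between the tissues in place of 9, Scnn1g losing its call, and without the colon array none was called for diet. The tissue labels were checked against marker genes. All 5 hepatocyte markers measured were higher in the liver and all 6 colon epithelial markers measured were higher in the colon. The 6 smooth muscle and 4 goblet cell markers measured were also all higher in the colon, and their part in the differences between tissues was not tested. On 3 liver arrays (HF-low-low replicate 6 and HF-low-suf replicates 4 and 5) dim probes lay closer to the reference than on the other 9. The median log2 ratio of probes that cleared the background on every colon array and no liver array was -0.32 to -0.16 on these 3 and -1.44 to -0.80 on the others. Values for the colon and liver comparison were therefore also taken without them.

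Of the 10 genes, 7 were called higher in the colon than in the liver (limma, Benjamini-Hochberg adjusted P below 0.05 and fold change above 1.5), against 12.2% of all probes. Aqp8 and Scnn1g were called higher in the liver, against 11.3% of all probes, and Scnn1b was not called. For 5 genes (Slc9a3, Car1, Car2, Car4 and Cftr) all 12 colon arrays lay above all 12 liver arrays, which was the case for 6.49% of all probes. The median difference, colon minus liver, was 2.21 on the log2 scale over the 10 genes and -0.02 over all probes.

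**Figure D1:**
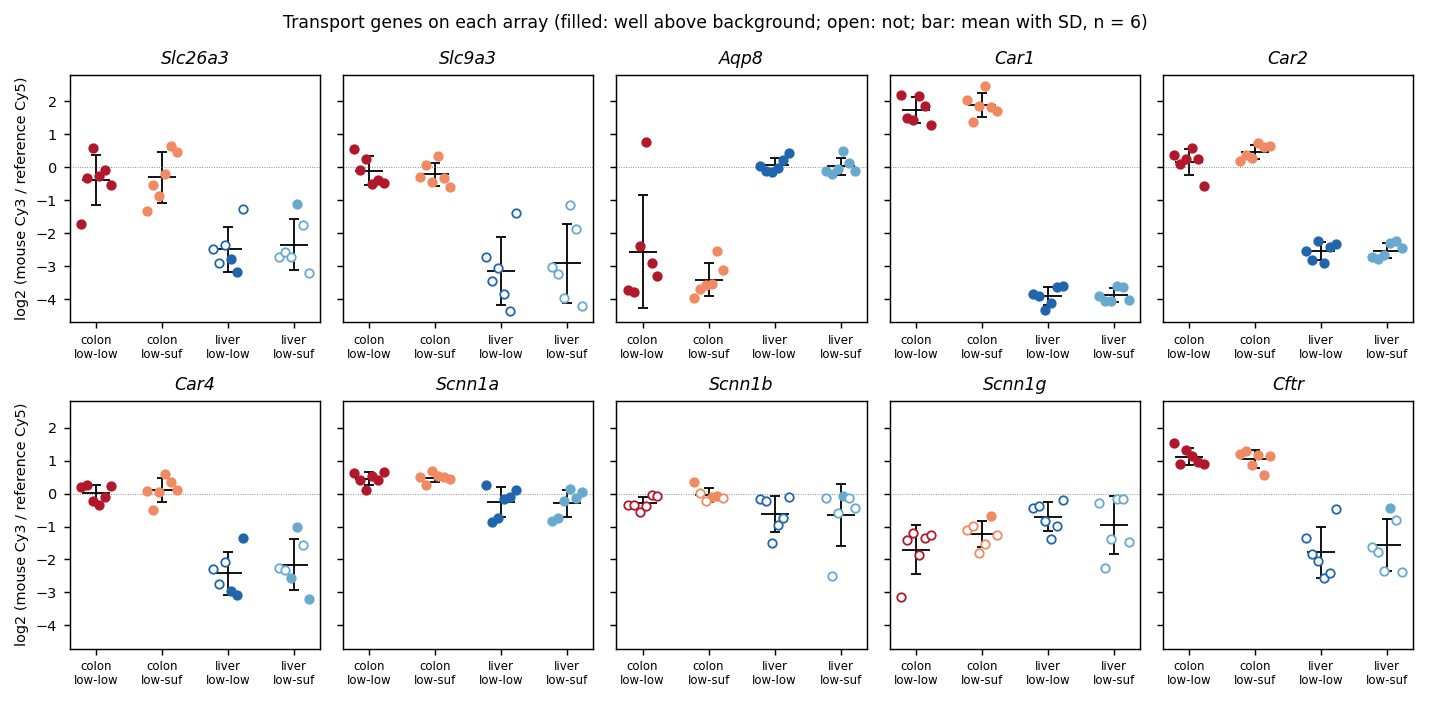
The 10 transport genes on each of the 24 arrays: log2 ratio of mouse RNA (Cy3) to the reference pool (Cy5), with the 4 groups of tissue and diet on the horizontal axis, each point 1 array and each bar the mean with SD (n = 6). Filled points were well above background and open points were not. Car1 separates colon from liver most widely, while 1 colon array of HF-low-low stands far above the other colon arrays for Aqp8 (0.78 against -3.98 to -2.40).

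The largest difference among the 10 genes was that of Car1, a cytosolic carbonic anhydrase. It ranged from 1.28 to 2.47 on the 12 colon arrays (median 1.84) and from -4.33 to -3.60 on the 12 liver arrays (median -3.91), as log2 ratio to the reference. No colon value came within 4.89 log2 units of any liver value. The difference was 5.71 (SE 0.13), 52.2-fold with a 95% interval of 43.4 to 62.8 (limma, adjusted P = 5.0e-23). With Cy3 alone the log2 difference was 6.61, above the log2 interval of 5.44 to 5.97, so the size depends on the processing. Before normalization the probe's signal was 1464 to 7412 times the local background on colon arrays and 23.6 to 53.6 times on liver arrays, so it was measured in both tissues.

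Car2, the fast cytosolic isoform, ranged from -0.57 to 0.72 in the colon (median 0.33) and from -2.91 to -2.23 in the liver (median -2.49). The lowest colon array, HF-low-low replicate 6, was still 1.66 above the highest liver array. The difference was 2.85 (SE 0.12), 7.22-fold with a 95% interval of 6.09 to 8.56 (limma, adjusted P = 5.1e-17). Car4, which is anchored to the outside of the apical membrane, ranged from -0.51 to 0.58 in the colon (median 0.10) and from -3.20 to -1.005 in the liver (median -2.30). The signal cleared the background on each of the 12 colon arrays and on 6 of 12 liver arrays. With the other 6 liver arrays not well above background, no fold is given. The measured log2 difference was 2.34 (SE 0.21, limma, adjusted P = 4.0e-10), and 3.39 with the signals processed by Feature Extraction.

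Car1 and Car2 are also abundant in red blood cells. Of the erythroid markers, Hbb-b1 (-3.50), Hba-a1 (-2.90) and Alas2 (-2.84) were lower in the colon by log2 difference, and Epb4.2 and Spna1 were well above background on no array. Their part in the differences of Car1 and Car2 was not tested.

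The paired exchangers were higher in the colon. Slc9a3, the apical sodium and proton exchanger also known as NHE3, ranged from -0.61 to 0.56 in the colon (median -0.30) and from -4.36 to -1.14 in the liver (median -3.15). The 2 ranges did not overlap, but the only probe, designed on a cDNA clone, was well above background on none of the 12 liver arrays. The size of the difference is therefore uncertain. For each liver array the higher of the probe's own value and the lowest signal among probes well above background was taken. The mean was then 6.28-fold higher in the colon, which is an estimate and not a confidence limit. The measured difference was 2.87 (SE 0.31, limma, adjusted P = 1.4e-08), with a 95% interval of 4.71-fold to 11.4-fold. Over the alternatives it ran from 2.48 (within the second scan day) to 5.28 (signals processed by Feature Extraction). The 3 liver arrays nearest the reference gave the 3 highest liver values, -1.14, -1.40 and -1.88.

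Slc26a3, the chloride and bicarbonate exchanger whose loss causes congenital chloride diarrhoea, ranged from -1.73 to 0.65 in the colon (median -0.30) and from -3.22 to -1.10 in the liver (median -2.65). The lowest colon values, -1.73 in HF-low-low replicate 1 and -1.33 in HF-low-suf replicate 1, came from the same slide and overlapped the liver range. The signal cleared the background on each of the 12 colon arrays and on 3 of 12 liver arrays. With 9 of 12 liver arrays not well above background, no fold is given. The measured log2 difference was 2.07 (SE 0.28, limma, adjusted P = 5.8e-07), and 3.47 with the signals processed by Feature Extraction. The second probe, designed on the RefSeq transcript, read -0.06 and -0.14 on those 2 colon arrays, and with it all 12 colon arrays lay above all 12 liver arrays, with a difference of 2.62 (SE 0.27, limma, adjusted P = 8.7e-09). Of the liver arrays, 1 was well above background for it. The third probe, designed like the first on a cDNA clone, was well above background on 1 colon array and no liver array. It gave -0.13 (SE 0.12, limma, adjusted P = 0.45). This last value is near background in both tissues and says nothing of the exchanger's level.

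Cftr, the channel mutated in cystic fibrosis, was printed 10 times on each array and those spots were averaged. It ranged from 0.57 to 1.53 in the colon (median 1.13) and from -2.55 to -0.43 in the liver (median -1.81), with no overlap. Its signal cleared the background on each of the 12 colon arrays and on 1 liver array. With 11 of 12 liver arrays not well above background, no fold is given and the size is uncertain. The measured log2 difference was 2.75 (SE 0.22, limma, adjusted P = 5.1e-11), and 4.70 with the signals processed by Feature Extraction. The second Cftr probe, printed above, was well above background on none of the 24 arrays, so no fold is given for it.

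Of the 3 subunits of the epithelial sodium channel, only Scnn1a was measured on every array. Scnn1a, the alpha subunit, was well above background on all 24 arrays, ranging from 0.10 to 0.69 in the colon (median 0.50) and from -0.87 to 0.28 in the liver (median -0.16). The ranges overlapped, and the mean was higher in the colon by 0.74 (SE 0.13), 1.67-fold with a 95% interval of 1.38 to 2.03 (limma, adjusted P = 4.6e-05). Within the second scan day alone the fold change of Scnn1a fell under 1.5, at a log2 difference of 0.53. Its second probe was well above background on none of the 24 arrays.

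Scnn1b, the beta subunit, was well above background on 3 of 12 colon arrays and 1 of 12 liver arrays. It ranged from -0.55 to 0.36 in the colon (median -0.12) and from -2.50 to -0.06 in the liver (median -0.34), with overlap, and the difference of 0.47 (SE 0.21) was not called (limma, adjusted P = 0.091). Without the 3 liver arrays nearest the reference it was called, at 0.66 (limma, adjusted P = 0.021). Scnn1g, the gamma subunit, was well above background on 1 colon array and on no liver array. It ranged from -3.14 to -0.67 in the colon (median -1.31) and from -2.26 to -0.16 in the liver (median -0.63). The test called it higher in the liver, by 0.63 (SE 0.24, limma, adjusted P = 0.042), but the liver signal itself was not above background, so neither a level nor a fold is given. Without the 3 liver arrays nearest the reference the call was lost (limma, adjusted P = 0.26).

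Aqp8, an aquaporin of colonic surface cells and of hepatocytes, ran the other way. It ranged from -0.19 to 0.48 in the liver (median -0.03) and, on 11 of the 12 colon arrays, from -3.98 to -2.40. The remaining colon array, HF-low-low replicate 4, was at 0.78, above every liver array. The mean was higher in the liver by 8.17-fold, a log2 difference of -3.03 (SE 0.34, 95% interval -3.72 to -2.34, colon minus liver, limma, adjusted P = 2.3e-08). Without the colon and liver of that mouse it was -3.37 (SE 0.17, limma, adjusted P = 2.9e-14).

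**Figure D2:**
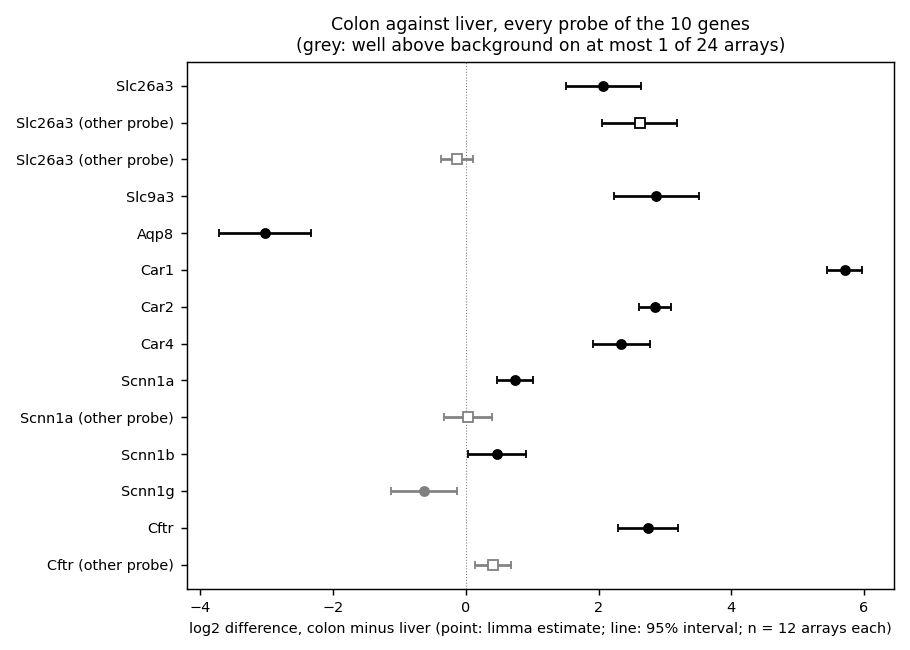
Log2 difference, colon minus liver, for each of the 14 probes of the 10 genes, as the limma estimate (point) with its 95% interval (line), from 12 arrays of each tissue. Circles are the probes that stand for a gene, squares the other probes, and grey probes were well above background on at most 1 of 24 arrays. The interval of Car1 runs from 5.44 to 5.97 and that of Aqp8 from -3.72 to -2.34, and the second probe of Slc26a3 has the same sign as the first.

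The second question was whether the post-weaning diet changed these genes in the colon. The sign is HF-low-suf over HF-low-low, with mouse RNA in Cy3. For the probes past the threshold over the whole array, this direction is the opposite of the one the study gives for most of its colon genes. None of the 10 genes was called (limma, unadjusted P below 0.01 and fold change above 1.5), against 0.168% of all probes (0.16% higher and 0.00729% lower in HF-low-suf). None had an unadjusted P below 0.05, against 2.98% of all probes, and no probe on the array passed Benjamini-Hochberg adjustment. Of the 10 genes, 7 had a higher and 3 a lower mean in HF-low-suf, while 48.3% of all probes had a higher mean. The groups overlapped for all 10 genes, the 95% interval of the difference included 0 for all 10, and the median difference was 0.10, against -0.01 over all probes.

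For 5 genes measured on every colon array (Slc9a3, Car1, Car4, Scnn1a and Cftr) the 95% interval of the diet difference lay within 1.5-fold in both directions. Car1 ranged from 1.28 to 2.19 in HF-low-low (median 1.67) and from 1.38 to 2.47 in HF-low-suf (median 1.84), with a difference of 0.15 (SE 0.20) and an interval of 0.82-fold to 1.49-fold. Cftr ranged from 0.90 to 1.53 in HF-low-low (median 1.05) and from 0.57 to 1.30 in HF-low-suf (median 1.15), with a difference of -0.08 (SE 0.16) and an interval of 0.74-fold to 1.20-fold. Scnn1a had the narrowest interval, 0.84-fold to 1.24-fold around a difference of 0.03 (SE 0.13).

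Slc9a3 differed by -0.11 (SE 0.21) between the diets, with an interval of 0.68-fold to 1.26-fold, and Car4 by 0.11 (SE 0.18), with an interval of 0.83-fold to 1.40-fold. Slc26a3 differed by 0.09 (SE 0.36) and had a wider interval, 0.62-fold to 1.82-fold. Its second probe gave 0.01 (SE 0.21), with an interval of 0.74-fold to 1.37-fold. The signs of these 3 differences were not stable between the 2 scan days, each of which held 3 arrays of each diet. Slc26a3 was at -0.42 within the first scan day and 0.60 within the second, Slc9a3 at -0.47 and 0.26, and Car4 at -0.21 and 0.42.

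Car2 ranged from -0.57 to 0.60 in HF-low-low (median 0.26) and from 0.18 to 0.72 in HF-low-suf (median 0.49). The difference was 0.30 (SE 0.18), with an interval of 0.94-fold to 1.61-fold (limma, unadjusted P = 0.12). Within the first scan day it was 0.04 and within the second 0.57. The low value of HF-low-low replicate 6 made up part of it, since without that array the difference was 0.15 (SE 0.15).

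Of the sodium channel subunits, Scnn1b ranged from -0.55 to -0.04 in HF-low-low (median -0.35) and from -0.24 to 0.36 in HF-low-suf (median -0.09). It was well above background on none of the HF-low-low arrays and on 3 of the HF-low-suf arrays (replicates 1, 4 and 5), so no fold is given. These 3 had the most probes well above background of the group, 50.1%, 50.5% and 71.9%, and their part in the Scnn1b values was not tested. The difference was 0.26 (SE 0.14), 0.27 without replicate 5 (SE 0.15, limma, unadjusted P = 0.093), and 0.71 with the signals processed by Feature Extraction (limma, unadjusted P = 0.013), so its size is uncertain. The two-sided exact permutation test over the 924 assignments of the 12 mice gave P = 0.039 for Scnn1b, 1 of 10 such tests, and limma gave an unadjusted P of 0.083. Scnn1g ranged from -3.14 to -1.21 in HF-low-low (median -1.38) and from -1.80 to -0.67 in HF-low-suf (median -1.18), with a single HF-low-suf array, replicate 5, well above background, and no fold is given.

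Aqp8 had the largest difference between the diet means among the 10 genes, and 1 array carried it. It ranged from -3.80 to 0.78 in HF-low-low (median -3.10) and from -3.98 to -2.54 in HF-low-suf (median -3.56). The difference was -0.85 (SE 0.59), with an interval of 0.23-fold to 1.32-fold (limma, unadjusted P = 0.17), and the exact permutation test gave P = 0.29. Without HF-low-low replicate 4 it was -0.18 (SE 0.28, limma, unadjusted P = 0.53).

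**Figure D3:**
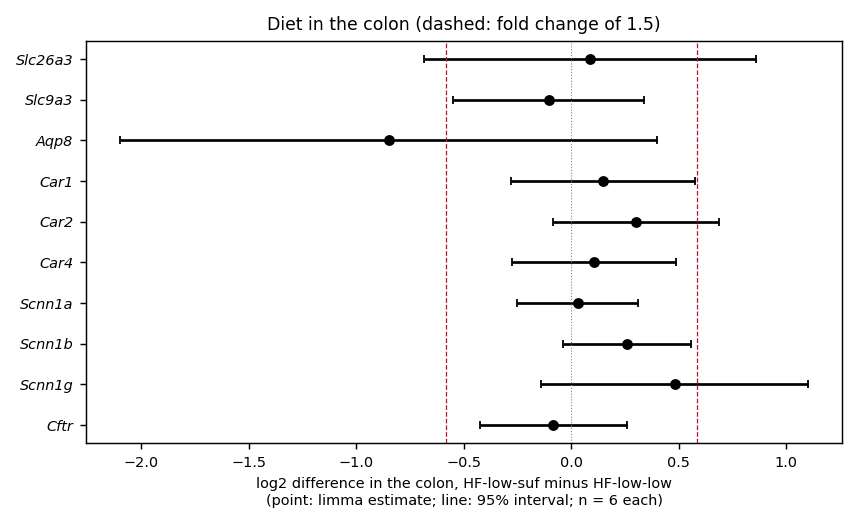
Log2 difference in the colon, HF-low-suf minus HF-low-low, for the 10 genes, as the limma estimate (point) with its 95% interval (line), 6 arrays per diet. Dashed lines mark a fold change of 1.5. All 10 intervals include 0, the widest being that of Aqp8 (-2.10 to 0.40).

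The diet difference was also compared between colon and liver. None of the 10 genes showed a diet by tissue interaction (limma over 24 arrays, smallest unadjusted P = 0.14, for Scnn1g), none had an unadjusted P below 0.05, against 4.59% of all probes, and no probe on the array passed adjustment. Without the 3 liver arrays nearest the reference the Scnn1g interaction was 1.03 (SE 0.48, limma, unadjusted P = 0.045, adjusted P = 0.85). The Scnn1g probe was near background. In the liver itself the 10 diet differences lay between -0.26 (Scnn1g) and 0.26 (Car4).

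The array of HF-low-low replicate 4 was examined further for Aqp8. The raw Cy3 signal of the Aqp8 probe was 1180 times the local background on it and 23.8 to 52.2 times on the other 11 colon arrays. The normalized Aqp8 value was 9.03-fold above the highest of those 11. Raw signal over background on this array was also the highest for Car1 (7412, next 5200), Car2 (775, next 379) and Scnn1a (81.7, next 59.1). It was not the highest for the remaining members. After normalization the other 9 transport genes lay within the range of the other 11 colon arrays. For Aqp8 the liver of the same mouse was at -0.02, within the range of the other livers. The mean level of the goblet cell markers on this colon array was 0.12, against 0.61 to 1.01 on the other 11. Its smooth muscle (0.08) and colon epithelial (0.86) marker levels lay within the range of the others. The part of tissue make-up in the Aqp8 value was not tested.

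Among 8566 genes that cleared the background on each of the 12 colon arrays, the 3 whose deviations from the diet means were most like those of Aqp8 were Fabp2, the intestinal fatty acid binding protein (Pearson r = 0.957), Gprc5a, an orphan receptor (0.944), and Clca6, of the calcium-activated chloride channel regulator family (0.942). All 3 were also higher on that array than on any other colon array, Fabp2 at -0.56 against -2.46 to -1.51, Gprc5a at 1.27 against -0.40 to 0.52, and Clca6 at -1.20 against -3.21 to -2.38. Without it the correlations were 0.864 for Fabp2, 0.862 for Gprc5a and 0.692 for Clca6. These genes were picked as the highest of many correlations over 12 arrays, so the values are descriptions.

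**Figure D4:**
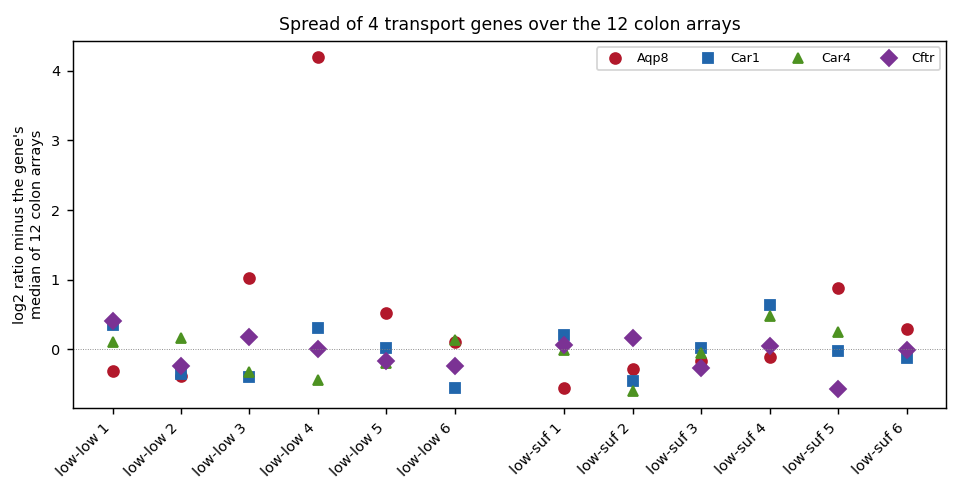
Aqp8, Car1, Car4 and Cftr on the 12 colon arrays, each as log2 ratio minus the gene's own median over those arrays, with the arrays of HF-low-low on the left and HF-low-suf on the right. HF-low-low replicate 4 stands apart for Aqp8, at 0.78 against -3.98 to -2.40 on the other arrays before centring, and not for the other 3 genes.

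For the other members detected on each colon array, the most similar gene was Ifngr2 for Slc26a3 (r = 0.922), Gapvd1 for Slc9a3 (0.927), 4631427C17Rik for Car1 (0.945), Heph for Car2 (0.928), Klf9 for Car4 (0.934), Psme1 for Scnn1a (0.936) and Snap23 for Cftr (0.921). Heph is the copper-containing ferroxidase of enterocytes and Klf9 a transcription factor. The next 2 in rank were 2010011I20Rik (0.896) and Esrra (0.896) for Slc26a3, Klhl7 (0.910) and Zfp617 (0.898) for Slc9a3, and Jak2 (0.940) and Iars2 (0.932) for Car1. They were Eps8 (0.900) and D4Bwg0951e (0.883) for Car2, Cry2 (0.919) and Gna11 (0.917) for Car4, 2810022L02Rik (0.928) and Rpp30 (0.920) for Scnn1a, and Derl1 (0.865) and Zfp46 (0.857) for Cftr. The list for Car2 leaned on HF-low-low replicate 6, without which r fell to 0.789 for Heph, 0.700 for Eps8 and 0.635 for D4Bwg0951e.

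Covariation of the 10 genes over the 12 colon mice depended on the scaling of the arrays. Of 45 pairs, none had a correlation of deviations from the diet means with a Benjamini-Hochberg adjusted permutation P below 0.05, and 4 had an unadjusted P below 0.05 (Pearson r, two-sided, 100000 resamples). With median centring 5 pairs passed, among them Car1 with Car2 (r = 0.90, adjusted permutation P = 0.0041), and without HF-low-low replicate 4 Slc26a3 with Aqp8 passed (r = 0.85, adjusted permutation P = 0.045). In the main setting Car1 and Car2 gave r = 0.61 and rho = 0.61 (permutation P = 0.033 and 0.041, adjusted 0.37 and 0.47), and r = 0.53 without the 2 arrays farthest from the median of Car1. Slc9a3 and Cftr gave r = 0.62 and rho = 0.55 (permutation P = 0.032 and 0.070, adjusted 0.37 and 0.48), and r = 0.41 without the 2 farthest arrays. The other 2 pairs joined Scnn1g, which was near background, to Slc26a3 (r = 0.68) and to Car1 (r = -0.63). Within scan days Car1 and Car2 were at r = 0.19 and 0.79, and within diets at 0.80 for HF-low-low and 0.30 for HF-low-suf. Within scan days Slc9a3 and Cftr were at r = 0.95 and 0.24, and within diets at 0.81 for HF-low-low and 0.41 for HF-low-suf.

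The same comparisons were made for 80 other genes of epithelial transport in 9 lists. Of these, 33 were called higher in the colon (against 12.2% of all probes), 17 higher in the liver (against 11.3%) and 30 were not called, and the median log2 difference was 0.27. Among chloride secretion genes 9 of 14 were higher in the colon and 2 in the liver, among regulators of the epithelial sodium channel 7 of 11 and 2, among potassium channels 3 of 5 and none, and among sodium and proton pumps 4 of 9 and 2. Among water channels 1 of 8 was higher in the colon and 3 in the liver, among anion exchangers 3 of 11 and 4, among the other carbonic anhydrases 3 of 11 and 3, among sodium and hydrogen exchange genes 2 of 7 and 1, and 1 of 4 monocarboxylate transport genes was higher in the colon. Of the 17 calls toward the liver, 4 rested on probes near background in both tissues, and their direction was not measured. Aqp3 was well above background on 3 colon and 2 liver arrays, Slc4a1 on 2 and 4, Fxyd4 on 1 and 1, and Atp12a on 3 and 5. The last 2 are both of the pump calls toward the liver.

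The 5 largest differences toward the colon were in Clca3, a secreted goblet cell protein (6.76, SE 0.18), Guca2a, the peptide guanylin (6.67, SE 0.13), Slc9a2, a second apical sodium and proton exchanger (6.05, SE 0.26), Tmprss4, a membrane serine protease (4.83, SE 0.24), and Kcne3, a potassium channel subunit (3.86, SE 0.16). The 5 largest toward the liver were in Slc26a1, a sulfate exchanger (-5.35, SE 0.16), Aqp9, the glycerol and water channel of hepatocytes (-4.02, SE 0.13), Car14, a membrane carbonic anhydrase (-3.43, SE 0.14), Slc4a9, an anion exchanger (-3.06, SE 0.11), and Car5a, the mitochondrial carbonic anhydrase (-3.00, SE 0.17). Several of these probes were mostly near background in the lower tissue, so the sizes and their order are uncertain. In the liver Slc9a2 was well above background on 2 of 12 arrays, Tmprss4 on 1 and Kcne3 on 7, and in the colon Slc26a1 on 2, Aqp9 on 1, Car5a on 1, Slc4a9 on 9 and Car14 on 11. In the diet comparison none of the 80 genes was called. Only Sgk1, a kinase that acts on the sodium channel, had an unadjusted P below 0.05, at -0.47 (limma, unadjusted P = 0.043, adjusted P = 0.9999), and it is named after its value was seen. Its share, 1 of 80, compares with 2.98% of all probes.

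**Figure D5:**
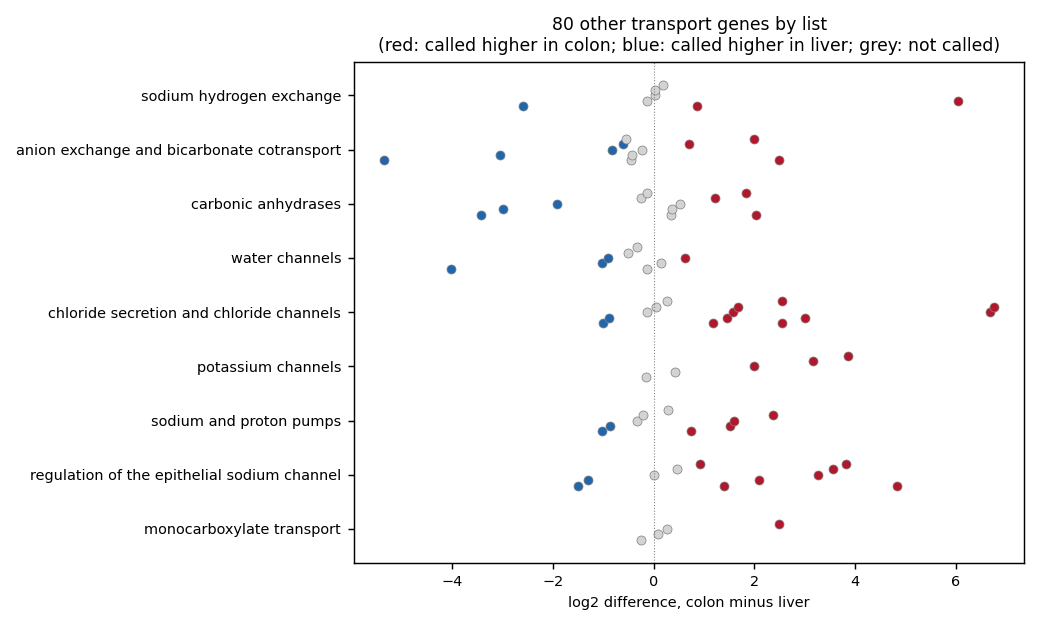
Log2 difference, colon minus liver, for the 80 other transport genes, each point 1 gene, arranged by list. Red genes were called higher in the colon (33), blue genes higher in the liver (17) and grey genes were not called (30). The points run from -5.35 for Slc26a1 to 6.76 for Clca3.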

How the data were processed

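The authors deposited 1 Feature Extraction file per array. The intensity values used are the mean signal of each spot in Cy3 (mouse RNA) and Cy5 (reference pool) and the median local background, as deposited, with no normalization. The signals processed by Feature Extraction were an alternative, and the deposited log ratios were not used. Spots were background corrected (normexp, offset 50) and loess was applied within each array with limma 3.58.1 (R 4.3.3), with 1639 control spots of 45018 left out. Spots flagged as outliers (0.267% to 8.75% per array) were also excluded, and spots that repeat a probe were averaged. Well above background is the Cy3 flag of that name set by Feature Extraction.

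Diet in the colon was tested by limma on 12 arrays and tissue by limma on 24 arrays in 4 groups. Called meant, for diet, the threshold of the study's methods, an unadjusted P below 0.01 with a fold change above 1.5, and, for tissue, an adjusted P below 0.05 with the same fold change. Replicate number was the slide (6 slides, scanned on 2 days), and colon and liver of a number came from 1 mouse per the labels. Colon and liver deviations of a mouse correlated at -0.03 to 0.28. Those of same-numbered colon arrays of the 2 diets correlated at -0.09 to 0.24. Nothing says that mice came from separate litters. Replicates of a group correlated at 0.655 to 0.938 and none was a duplicate.

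The alternatives were plain or no background correction, Feature Extraction signals, median centring, Aquantile scaling, Cy3 alone, outlier spots kept, a filter on dim probes, scan day, replicate number and mouse as blocks, all arrays in one fit, and leaving out arrays or mice. Leaving out named pairs or sets of arrays, and replicate 4 in the correlations, was chosen after seeing the data. An uncalled value that changed sign was counted as reversed only if the shift exceeded its standard error. Named genes are the 10 members, their 3 most correlated genes, and in the list of 80 the 5 largest differences each way among genes called and well above background on all arrays of the higher tissue. The members and lists were chosen with earlier results of these data known. Of 23848 probes with a RefSeq accession, 22951 matched the reference table of current names. One erythroid marker is not reported here. The tests were tested on simulated data.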

Additional observations from a re-analysis of the deposited data

Results flagged for a closer look

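Each of the 10 genes was examined for a sample far from the others in its group of 6, and 3 of the 40 groups held one. Chance alone flags about 1 in 20 groups. Aqp8 in colon HF-low-low replicate 4 was at 0.78, while the next highest array of the group was at -2.40. Scnn1b in liver HF-low-suf replicate 2 was at -2.50, below the next lowest array at -0.58, and Scnn1g in colon HF-low-low replicate 1 was at -3.14, below the next lowest at -1.85. The Scnn1b and Scnn1g probes were not well above background on these arrays, and the Aqp8 probe was.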

How the results depend on the processing

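Of the 10 genes, 9 were called between colon and liver, and 7 to 9 under the 29 alternatives. Slc26a3, Slc9a3, Aqp8, Car1, Car2, Car4 and Cftr kept their direction and call in every one, but Feature Extraction signals moved Slc9a3 from 2.87 to 5.28, Cftr from 2.75 to 4.70, Slc26a3 from 2.07 to 3.47 and Car4 from 2.34 to 3.39. Scnn1a missed the fold threshold within the second scan day (0.53), Scnn1b was called in 3 (plain background subtraction 0.65, Feature Extraction signals 1.001, without the 3 liver arrays 0.66), and Scnn1g lost its call in 17, reaching -0.07 with Cy3 alone. Cy3 alone moved Car1 from 5.71 to 6.61. Feature Extraction signals moved the median of all probes to 0.19, against -0.02. The third Slc26a3 probe had the opposite sign (-0.13). No member was called for diet or interaction under any alternative. Diet differences that changed sign with a shift above their standard error were Cftr with median centring (0.087), Slc26a3 (-0.42) and Car4 (-0.21) within the first scan day, Slc9a3 (0.26) within the second, and the second Scnn1a probe (-0.27). The cause was not tested.

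With the replicate number (slide) as a block 0 members were called for diet, with mouse as a fixed or a random block 9 were called for tissue and 0 for the interaction, and the block changed no call. Of the 6 colon arrays of HF-low-low, 3 correlated best with the HF-low-suf array of their own number. Over all probes, the 69 diet calls became 92 with this block, 13 without background correction, 26 with median centring, 19 with Cy3 alone, 3 among probes well above background on at least 6 arrays, 113 with scan day as a block, 278 within the first scan day and 23 to 257 leaving out 1 colon array (23 without HF-low-low replicate 1, 257 without HF-low-low replicate 5). Of the 45 pairs, 0 were called, 5 with median centring (Car1 with Car2, Car1 with Scnn1a, Car4 with Scnn1a, and Aqp8 with Car1 and Car2) and 1 without colon HF-low-low replicate 4 (Slc26a3 with Aqp8). Signal over background limits Scnn1b and Scnn1g, which were dim in both tissues.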
